A study of Homo sapiens with 9 samples.

Results

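The 9 *UGT1A* genes, *UGT1A1* and *UGT1A3* to *UGT1A10*, were described in RNA-seq of A549 cells, a human lung adenocarcinoma line. They were selected by gene symbol from the 26364 gene names of the deposited count table. The family was proposed because *UGT1A9* and *UGT1A1* were among the largest differences between cells with and without the *LOC388942-ALK* (*LA*) fusion in an earlier look at the same counts. Levels in *LA* and control cells are therefore given as a description, without a test.

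The control group held 2 libraries of A549 with the genotype WT. The *LA* group held 2 libraries of A549 edited with sgLOC388942 and sgALK, which cut between *LOC388942* and *SLC8A1* and within *ALK*. The sgScr group (3 libraries) and the sg*FOS* group (2 libraries) carried the same pair of guides together with a scramble guide or guides against *FOS*. Per the methods, fusion cells were made in A549-Cas9 cells by lentiviral delivery and grown as strains from single cells. Which strain gave which library is not stated in the sources used here, and the replicates are not stated to be separate cultures, so that p-values measure only the spread between libraries.

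UDP-glucuronosyltransferases join glucuronic acid to bilirubin, steroids, phenols and drugs, which makes them soluble for export in bile and urine. The human *UGT1A* locus is a single transcription unit with a row of alternative first exons. Each first exon has its own promoter, encodes the substrate-binding part of an enzyme and is spliced to the same set of last exons, which encode the part that binds UDP-glucuronic acid. *UGT1A1* is the bilirubin-conjugating enzyme of liver, *UGT1A6* prefers small planar phenols and *UGT1A9* takes bulkier phenols. *UGT1A7*, *UGT1A8* and *UGT1A10* are known mainly from the digestive tract, and *UGT1A4* conjugates amines.

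On GRCh37, the build also called hg19, the locus spans chr2:234526279-234681946 on the plus strand, 155668 bp. In the GENCODE transcripts used here each member had 5 exons. Its first exon, of 882 to 976 bp, was its own, and the 4 last exons, 1479 bp together, had the same coordinates in all 9 genes. The coding parts of the *UGT1A7*, *UGT1A8*, *UGT1A9* and *UGT1A10* first exons were 92.05% to 94.04% identical, and those of *UGT1A3*, *UGT1A4* and *UGT1A5* were 93.19% to 94.12% identical. The *UGT1A6* first exon was 53.0% to 54.96% identical to the others. No stretch of 150 bases, the length of a read, in a first exon was found in another member's first exon.

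The first 90 coding bases of the *UGT1A9* first exon and of its 3 closest relatives are shown as a sample of the differences between these members. *UGT1A9* and *UGT1A7* were the 2 most abundant members, and the 2 others had few or no counts. Capitals mark bases that differ from *UGT1A9*, all on the plus strand of GRCh37.
UGT1A9, chr2:234580581-234580670: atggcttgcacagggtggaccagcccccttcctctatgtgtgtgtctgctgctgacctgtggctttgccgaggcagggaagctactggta
UGT1A7, chr2:234590584-234590673: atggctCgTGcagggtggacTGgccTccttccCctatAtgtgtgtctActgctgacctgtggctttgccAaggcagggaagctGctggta
UGT1A8, chr2:234526354-234526443: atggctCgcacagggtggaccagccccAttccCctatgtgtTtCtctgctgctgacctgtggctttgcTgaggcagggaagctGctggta
UGT1A10, chr2:234545169-234545258: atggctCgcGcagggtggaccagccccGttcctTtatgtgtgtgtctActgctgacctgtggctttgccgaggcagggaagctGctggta

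In these 90 bases *UGT1A7* differed from *UGT1A9* at 11 positions, *UGT1A8* at 7 and *UGT1A10* at 6. A read over the shared last exons cannot be assigned to a member, and how the counting treated such reads is not given in the sources used here. In *LA* replicate 1 *UGT1A9* had 1473 counts and *UGT1A10* had 0, so that shared reads were not added to every member. A level below is thus the number of reads given to a member, and not its whole transcript output.

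The 9 libraries held 14507228 to 20456341 counts, and a count of 0 allows up to 3 counts (0.143 to 0.203 CPM, counts scaled by TMM to a common library size), which covers counting error only. *FOS*, the gene that sg*FOS* targets, had 1008 and 1113 counts in sg*FOS* and 3528 to 4198 in sgScr, a log2 fold change of -1.48 ± 0.044 (SE, edgeR quasi-likelihood test, Benjamini-Hochberg adjusted p = 2.0e-25). *ALK* had 2 and 15 counts in *LA*, 0 to 4 in the 5 further fusion libraries and 0 in both controls. *CDKN2A*, deleted in A549, was listed at 0 in 8 libraries and at 1 in sg*FOS* replicate 1. The 8 epithelial and A549 markers summed to 16002 CPM or more in every library, whereas 4 of the 7 markers of other cells were at or under 3 counts in every control, *LA* and sgScr library, and 5 in sg*FOS*. The 5 alveolar type II markers, the cell type that A549 is often taken to model, summed to at most 0.671 CPM and none passed the filter. In sg*FOS* against sgScr *KRT19*, *KRT8* and *KRT18*, epithelial keratins, rose by 0.86, 0.23 and 0.15 on the log2 scale, *AKR1B10* fell by 0.19 and the collagen *COL1A1* rose by 0.45 (edgeR adjusted p under 0.05), of which *KRT18* and *COL1A1* were not called without sg*FOS* replicate 1, and their part in the results was not tested. Replicates of control and of *LA* lay far further apart (chi-square per degree of freedom of 125 and 58.1) than those of sgScr and sg*FOS* (1.74 to 2.65).

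*UGT1A9* had the most counts of the family in 8 of the 9 libraries. Its counts were 11 and 26 in control, 1473 and 1358 in *LA*, 60, 39 and 46 in sgScr, and 38 and 36 in sg*FOS*. Both *LA* libraries thus stood far above the 7 others, and the 5 fusion libraries with a further guide were each above both controls. On the CPM scale, *UGT1A9* was at 83.2 ± 10.3 (SD, n = 2) in *LA*, 1.12 ± 0.582 (n = 2) in control, 2.46 ± 0.504 (n = 3) in sgScr and 2.49 ± 0.127 (n = 2) in sg*FOS*. The mean of *LA* was 74.1 times that of control and 33.8 times that of sgScr.

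*UGT1A7*, whose first exon lies next to that of *UGT1A9*, had 2 and 34 counts in control, 560 and 317 in *LA*, 22, 14 and 19 in sgScr, and 17 and 17 in sg*FOS*. It was high in the same 2 libraries, and control replicate 2 exceeded all sgScr and sg*FOS* libraries. The mean level was 26.0 ± 11.8 CPM in *LA* and 1.07 ± 1.33 CPM in control (SD, n = 2 each), a ratio of 24.4 that rests on a control group whose libraries differed widely.

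**Figure D1:**
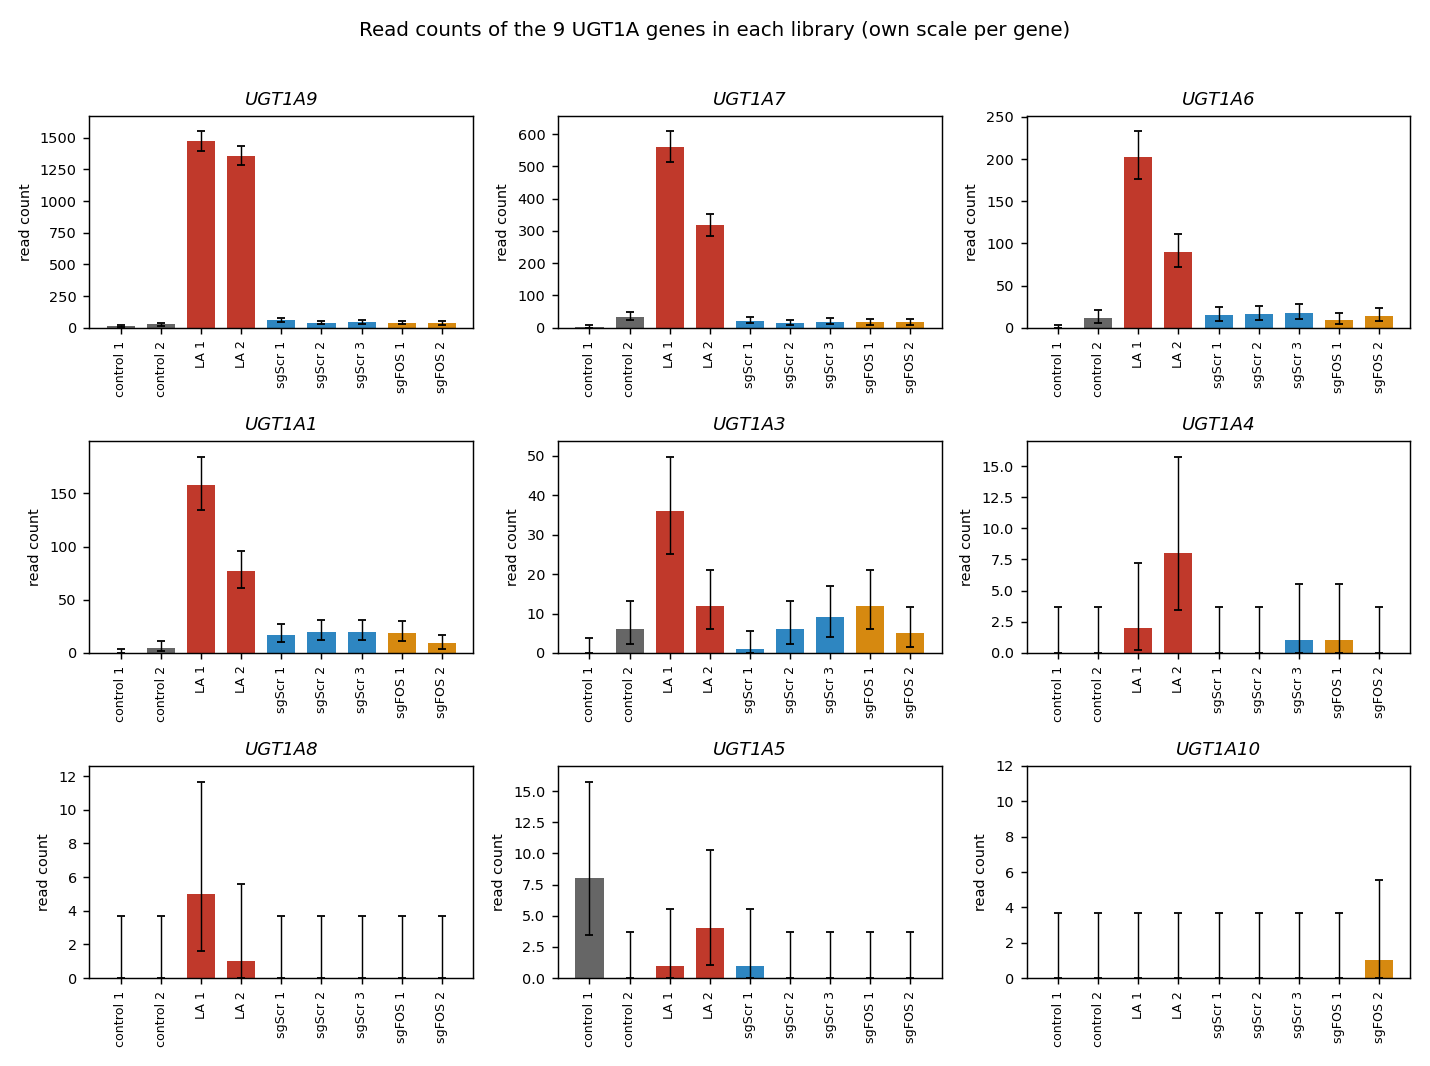
Read counts (y axis, own scale per gene) of the 9 *UGT1A* genes in each library (x axis), with exact Poisson intervals of 95% as error bars. *UGT1A9*, *UGT1A7*, *UGT1A6* and *UGT1A1* were high in both *LA* libraries, and *UGT1A10* was at 0 in all but 1 library.

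*UGT1A6* had 0 and 12 counts in control, 203 and 90 in *LA*, 15, 16 and 18 in sgScr, and 9 and 14 in sg*FOS*. *UGT1A1* had 0 and 5 counts in control, 158 and 77 in *LA*, 17, 20 and 20 in sgScr, and 19 and 9 in sg*FOS*. For both, as for *UGT1A7*, *LA* replicate 1 held the higher count, and by a larger ratio than for *UGT1A9*. Their mean levels in *LA* were 8.75 ± 5.26 CPM (*UGT1A6*) and 7.0 ± 3.82 CPM (*UGT1A1*), against 0.354 ± 0.501 CPM and 0.147 ± 0.209 CPM in control (SD, n = 2 each). In sgScr the means were 0.842 ± 0.169 CPM (*UGT1A6*) and 0.976 ± 0.170 CPM (*UGT1A1*, SD, n = 3 each).

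*UGT1A3* had 0 and 6 counts in control, 36 and 12 in *LA*, 1, 6 and 9 in sgScr, and 12 and 5 in sg*FOS*. Its *LA* and sg*FOS* values overlapped, unlike those of the 4 genes above. *UGT1A4* had 2 and 8 counts in *LA*, 1 in sgScr replicate 3, 1 in sg*FOS* replicate 1 and 0 elsewhere. Set against 3 counts in each control library, its mean in *LA* was at least 1.54-fold higher, a bound that rests on *LA* replicate 2, since replicate 1 was under the limit. *UGT1A8* had 5 and 1 counts in *LA* and 0 in the other 7 libraries, which gives no fold against control at this depth. *UGT1A5*, a member with few known substrates, had 8 counts in control replicate 1, 0 in control replicate 2 and 1 and 4 in *LA*, so that it alone was not above control in *LA* among members with counts there. *UGT1A10* had 1 count in sg*FOS* replicate 2 and 0 in the other 8 libraries. At this depth expression of *UGT1A10* was not detectable in control, *LA* or sgScr.

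Summed over the 9 members, the counts were 21 and 83 in control, 2438 and 1867 in *LA*, 116, 95 and 113 in sgScr, and 96 and 82 in sg*FOS*. The mean was 127 ± 32.1 CPM in *LA* (SD, n = 2), 3.13 ± 2.50 CPM in control (n = 2), 5.54 ± 0.937 CPM in sgScr (n = 3) and 5.98 ± 0.743 CPM in sg*FOS* (n = 2). The *LA* mean was 40.6 times that of control and 22.9 times that of sgScr. Both *LA* libraries lay above both controls for 7 of the 9 members, and above all 7 other libraries for 6 of 9, namely *UGT1A1*, *UGT1A4*, *UGT1A6*, *UGT1A7*, *UGT1A8* and *UGT1A9*. *UGT1A4* in *LA* replicate 1 and *UGT1A8* in *LA* replicate 2 were under the limit that a count of 0 allows, and counting only values above that limit leaves 5 and 4 members. Of all genes tested, 33.8% had both *LA* libraries above both controls and 13.1% had them above the 7 others. Since the members were chosen for this pattern, the counts describe it and nothing is read from them.

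Levels of different genes were set side by side per kilobase of first exon, on the assumption that the counts came from reads touching it. In *LA*, *UGT1A9* came first at 93.2 ± 11.5 CPM per kilobase (SD, n = 2), followed by *UGT1A7* at 29.2 ± 13.2 and *UGT1A6* at 8.96 ± 5.39. *UGT1A1* was at 7.94 ± 4.33, *UGT1A3* at 1.51 ± 1.14, *UGT1A4* at 0.299 ± 0.241, *UGT1A8* at 0.195 ± 0.191 and *UGT1A5* at 0.150 ± 0.120 CPM per kilobase. *UGT1A6* was above *UGT1A1* in each *LA* library, by less than the libraries differed, and the order of *UGT1A4*, *UGT1A8* and *UGT1A5* changed between the libraries. The first 5 places were taken by the same genes in both *LA* libraries. In sgScr, *UGT1A9* led with 2.76 ± 0.565 CPM per kilobase (SD, n = 3), while *UGT1A1* (1.11 ± 0.193), *UGT1A7* (1.05 ± 0.253) and *UGT1A6* (0.862 ± 0.174) overlapped. In control replicate 2, *UGT1A7* was above *UGT1A9*.

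**Figure D2:**
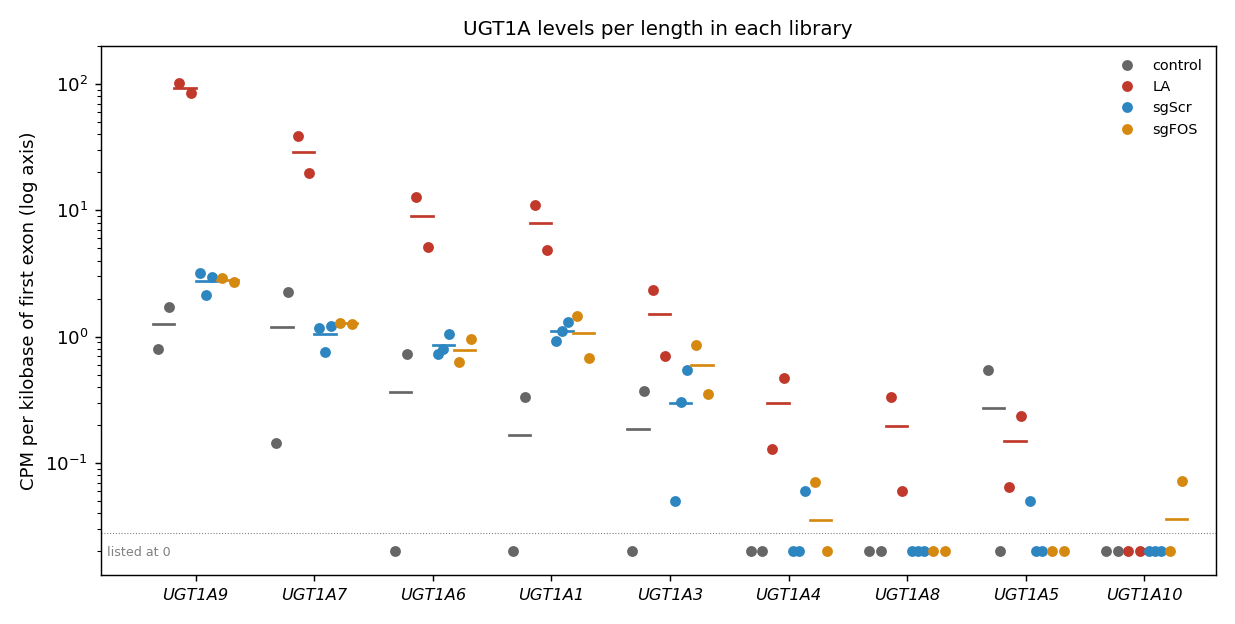
Level of each *UGT1A* gene in CPM per kilobase of its first exon (log axis), each point a library and each short bar a group mean. Points under the dotted line are libraries with 0 counts, and bars too low to show are left out. *UGT1A9* in *LA* averaged 93.2 CPM per kilobase, above every other gene and group.

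As a share of the family's counts, *UGT1A9* made up 60.4% (exact binomial interval of 95%, 58.4% to 62.4%) of 2438 counts in *LA* replicate 1 and 72.7% (70.7% to 74.7%) of 1867 in replicate 2. The 2 *LA* libraries thus differed in make-up beyond counting error. The share was 40.7% to 51.7% in sgScr, 39.6% and 43.9% in sg*FOS*, and 52.4% and 31.3% in control. *UGT1A7* took 17.0% and 23.0% in *LA*, 14.7% to 19.0% in sgScr and 17.7% and 20.7% in sg*FOS*. *UGT1A1* took 4.12% and 6.48% of the counts in *LA* but 14.7% to 21.1% in sgScr and 10.98% and 19.8% in sg*FOS*, with 0 of 21 and 6.02% of 83 counts in control. The *UGT1A6* share was likewise 4.82% and 8.33% in *LA* and 12.9% to 16.8% in sgScr. The sums in the 7 libraries outside *LA* were 21 to 116 counts, which leaves wide intervals, for example 31.1% to 51.6% for *UGT1A9* in sgScr replicate 2.

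**Figure D3:**
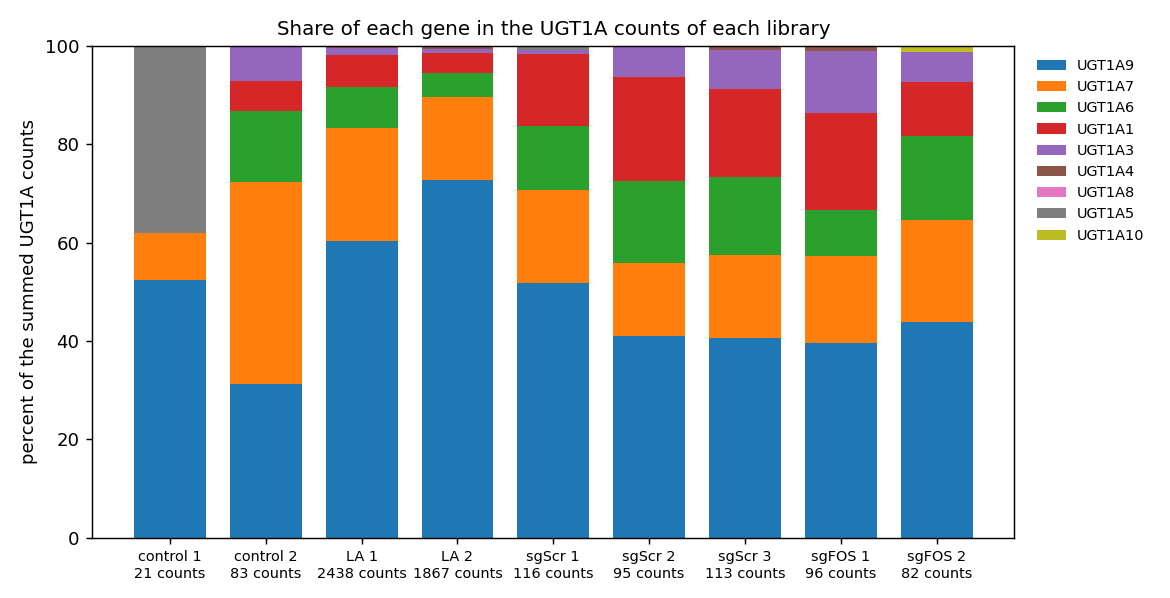
Share of each gene (percent, y axis) in the summed *UGT1A* counts of each library, with that sum written under the library. *UGT1A9* held 60.4% and 72.7% in *LA* and 39.6% to 51.7% in sgScr and sg*FOS*, and control replicate 1 rests on 21 counts.

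In the edgeR fit of *LA* and control, 5 of the 9 members passed the filter on low counts, which *UGT1A4*, *UGT1A5*, *UGT1A8* and *UGT1A10* did not. The fitted log2 fold change was 6.16 ± 0.549 (SE, n = 2 each) for *UGT1A9*, 5.43 ± 0.917 for *UGT1A1*, 4.55 ± 0.712 for *UGT1A7*, 4.54 ± 0.867 for *UGT1A6* and 2.91 ± 1.07 for *UGT1A3*. The median over all 14425 genes of that fit was 0.044. In it 9.57% of genes were called higher in *LA* and 9.94% lower at an adjusted p under 0.05. Fold changes of all genes in these libraries followed transcript length (Spearman's rho of 0.573 across 14158 genes, which are not independent replicates). With a correction for length and GC content the values of the 5 members were 6.32, 5.60, 4.73, 4.67 and 3.05 in the same order. Without control replicate 1 *UGT1A1* was at 4.47, *UGT1A7* at 3.63, *UGT1A6* at 3.55 and *UGT1A3* at 1.93, and without *LA* replicate 1 they were at 4.69, 3.95, 3.70 and 1.78.

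The sgScr cells carry the fusion guides as the *LA* cells do, and their summed *UGT1A* level was 1.77 times that of control where that of *LA* was 40.6 times. Set against *LA*, the fitted log2 fold change in sgScr was -5.10 ± 0.184 (SE) for *UGT1A9*, -4.81 ± 0.364 for *UGT1A7*, -3.39 ± 0.446 for *UGT1A6*, -2.86 ± 0.406 for *UGT1A1* and -2.37 ± 0.825 for *UGT1A3*. Set against control, it was 2.62 ± 0.842 for *UGT1A1*, 1.19 ± 0.941 for *UGT1A6*, 1.12 ± 0.425 for *UGT1A9* and -0.21 ± 0.872 for *UGT1A7*. All 3 sgScr libraries lay above both controls for *UGT1A1*, *UGT1A6* and *UGT1A9*, 3 of the 9 members, where 35.9% of all genes tested did so. For *UGT1A6* the lowest sgScr value was 0.714 CPM, against 0.708 CPM in control replicate 2, which is within counting error. These fits share the *LA* or the control libraries with the comparison that chose the members, and no test is given. *FOS* itself had 334 and 92.8 CPM in *LA*, 196 to 203 CPM in sgScr, 68.3 and 74.1 CPM in sg*FOS* and 9.14 and 10.8 CPM in control. A link between the *FOS* and *UGT1A* levels of these groups was not tested. No label says whether the *LA* and sgScr libraries were prepared together or came from 1 strain, and the added guide cannot be told apart from either.

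The comparison of sg*FOS* with sgScr asks which genes depend on *FOS* in fusion cells, and it did not enter the choice of members. Of the 9 members, 4 passed the filter, and none of them was called by the edgeR quasi-likelihood test at a Benjamini-Hochberg adjusted p under 0.05, where 12.2% of 14196 genes were called higher in sg*FOS* and 10.5% lower. None had an unadjusted p under 0.05. DESeq2 gave an adjusted p to *UGT1A9* alone (0.985) and so could not call the other 3. *UGT1A9* had a log2 fold change of 0.02 ± 0.251 (SE, adjusted p = 0.968), with an interval of 95% from -0.49 to 0.53. The others were *UGT1A7* at 0.29 (interval -0.45 to 1.04, adjusted p = 0.625), *UGT1A1* at -0.04 (-0.84 to 0.77, adjusted p = 0.962) and *UGT1A6* at -0.10 (-0.95 to 0.74, adjusted p = 0.895). The signs for *UGT1A1*, *UGT1A6* and *UGT1A9* were not stable when single libraries were left out. Both sg*FOS* libraries were above the 3 sgScr libraries for *UGT1A7* alone, by 1.13 and 1.15 CPM against at most 1.09 CPM, where 24.0% of all genes showed this. With no filter *UGT1A3* had a log2 fold change of 1.04 ± 0.661 (adjusted p = 0.325) and no member was called. At 36 to 60 counts per library for *UGT1A9* and fewer for the rest, smaller differences than these intervals were not detectable.

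A glucuronide needs UDP-glucuronic acid, which UGP2 and UGDH make from glucose 1-phosphate and SLC35D1 carries into the endoplasmic reticulum. All 7 genes of the list for UDP-glucuronic acid, not all of which supply it, were tested in sg*FOS* against sgScr, and 3 were called. *UGDH*, the dehydrogenase, fell by 0.24 on the log2 scale (SE 0.0332, edgeR adjusted p = 4.5e-07), *UGP2* fell by 0.14 (adjusted p = 0.00685), and the phosphoglucomutase *PGM1* rose by 0.20 (adjusted p = 0.0046). *PGM2*, *SLC35D1*, *SLC35D2* and *UXS1*, at -0.17 to 0.08, were not called. The list's median was -0.03, beside -0.0015 for all genes tested.

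Glucuronides leave cells through the ABC transporters of the list of 6 genes for hydrolysis and efflux, and beta-glucuronidase (*GUSB*) splits them again. In sg*FOS* against sgScr *ABCC1* rose by 0.14 (adjusted p = 0.0027) and *ABCC4* by 0.13 (adjusted p = 0.0282). *ABCG2* fell by 0.16 (adjusted p = 0.00227), *GUSB* by 0.21 (adjusted p = 0.0246) and *ABCC3* by 0.10 (adjusted p = 0.0407), all on the log2 scale in edgeR, and *ABCC2* was at 0.03 (adjusted p = 0.666). The median of the 6 was -0.04.

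Bilirubin, the substrate of *UGT1A1*, arises from heme through heme oxygenase and biliverdin reductase. *HMOX1* rose by 0.21 (SE 0.0423, adjusted p = 0.000233) and *HMOX2* by 0.21 (adjusted p = 0.0131), whereas *BLVRA* fell by 0.15 (adjusted p = 0.046), in the same edgeR test and on the log2 scale. *BLVRB* and the bilirubin carriers *SLCO1B1* and *SLCO1B3* were not called, at -0.06 to 0.18, and the median of the 6 was 0.10.

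Among the 19 regulators listed for the locus, 16 were tested in sg*FOS* against sgScr and 1 was called. *ARNT*, the partner of the aryl hydrocarbon receptor, fell by 0.24 on the log2 scale (SE 0.071, edgeR adjusted p = 0.0126). The receptor itself, *AHR*, was at -0.07 (adjusted p = 0.238), *NFE2L2*, which encodes the oxidative stress factor NRF2, at -0.04 (adjusted p = 0.558), and its inhibitor *KEAP1* at 0.05 (adjusted p = 0.527). The nuclear receptors *HNF4A*, *RXRA*, *PPARA* and *NR3C1*, the homeodomain factor *CDX2*, the MAF genes *MAFF*, *MAFG* and *MAFK*, *FOXA1* and *AHRR* were not called either, with values of -0.12 to 0.43. *NR1H4*, *NR1I2* and *NR1I3*, the last 2 being the drug sensors PXR and CAR, did not pass the filter, with at most 8 counts in any library for *NR1I2* and *NR1I3*.

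Of the 35 genes tested in these 4 lists 12 were called, 34.3% beside 22.7% of all genes. Of the 12, *UGDH* and *HMOX1* remained called with each library left out in turn. Without sg*FOS* replicate 1, 4 of the 12 were called, and without sg*FOS* replicate 2, 6 were. In a single edgeR fit of all 9 libraries none of the 12 was called.

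**Figure D4:**
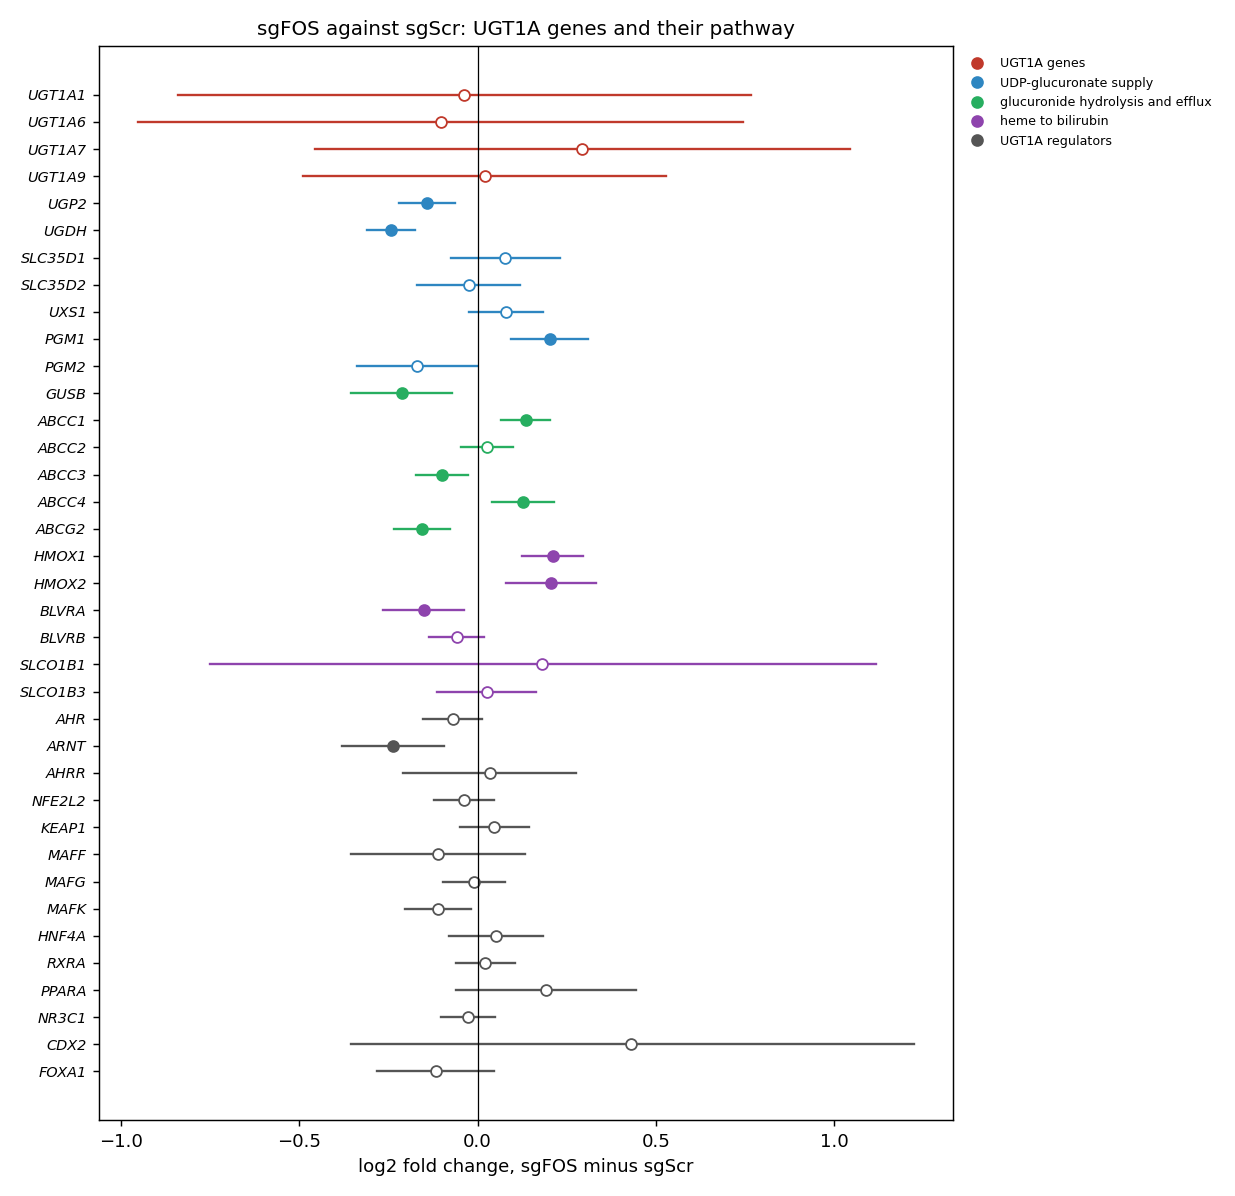
Log2 fold change of sg*FOS* over sgScr (x axis) for the 4 *UGT1A* genes tested and the tested genes of the 4 lists that are reported here, with intervals of 95%. Filled points had an edgeR adjusted p under 0.05. The *UGT1A* intervals span 0 and are wider than most others, and the called genes lie between -0.24 and 0.21.

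In *LA* against control 8 of the 36 genes tested in the same 4 lists were called, 22.2% beside 19.5% of all genes. *AHR* rose by 1.81 ± 0.451 (log2, SE, edgeR adjusted p = 0.00757), *PPARA* by 2.31 ± 0.485 (adjusted p = 0.00278) and *MAFK* by 1.41 ± 0.437 (adjusted p = 0.0264), 3 of 17 regulators tested with none lower. The list's median was 0.58, beside 0.04 for all genes. *SLC35D1* rose by 1.46 (edgeR adjusted p = 0.0234), 1 of 7 genes of the list for UDP-glucuronic acid. The efflux pumps *ABCC2*, a canalicular exporter of bilirubin glucuronides, and *ABCC4* rose by 1.41 and 1.20 (adjusted p = 0.0275 and 0.0482), 2 of 6 with a median of 0.98. The biliverdin reductase *BLVRA* fell by 1.56 (adjusted p = 0.0103) and *BLVRB* fell by 1.52 (adjusted p = 0.0123), 2 of 6 with a median of -0.74. After correction for length and GC content only *AHR*, *MAFK* and *PPARA* of the 8 were still called, with the replicate number as a block 4 were, without control replicate 1 3 were, without *LA* replicate 1 only *PPARA* was, and without *LA* replicate 2 none was.

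*AHR* had 386 and 1068 counts in control, 2209 and 3239 in *LA*, 2080 to 2491 in sgScr and 1667 and 1684 in sg*FOS*. *PPARA* had 52 and 97 counts in control, 350 and 442 in *LA*, 172 to 204 in sgScr and 147 and 181 in sg*FOS*. Both genes were thus lowest in control, and the sgScr counts of *PPARA* lay between those of control and *LA*.

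Targets of these regulators were called in both directions in sg*FOS* against sgScr. In *LA* against control, none of 6 *AHR* target genes tested was called higher and *ALDH3A1*, an aldehyde dehydrogenase, fell by 2.09 on the log2 scale (edgeR adjusted p = 0.00439), a call that was lost without either *LA* library. Of all genes in the fit of *LA* and control, 9.57% were called higher and 9.94% lower. A single fit of all 9 libraries called *AHRR* higher in *LA*, and *ALDH3A1* and *NQO1* lower. It called 3552 of all 14849 genes higher and 3247 lower. In sg*FOS* against sgScr *TIPARP* rose by 0.36 (edgeR adjusted p = 5.7e-07) and *ALDH3A1* by 0.24 (adjusted p = 5.6e-07). *CYP1B1* fell there by 0.21 (edgeR adjusted p = 6.3e-05) and *NQO1* by 0.12 (adjusted p = 0.0105). These were 2 higher and 2 lower of 6 tested, beside 12.2% and 10.5% of all genes. Of 16 NRF2 target genes, 8 were called lower and 1 higher in sg*FOS*, beside 10.5% and 12.2% of all genes. Among them were *PGD* at -0.29 (edgeR adjusted p = 2.4e-08), *AKR1C2* at -0.25 (adjusted p = 2.6e-07), *AKR1C3* at -0.20 (adjusted p = 3.4e-05) and the cystine carrier *SLC7A11* at 0.20 (adjusted p = 1.5e-05). The list's median was -0.09. No *AHR* or NRF2 target gene was called in sg*FOS* by a single fit of all 9 libraries. The same held at an absolute log2 fold change over 0.5 with an unadjusted edgeR p under 0.05. In *LA* against control 2 of the 16 were called lower and 1 higher, beside 19.5% of all genes called, and none was without control replicate 1 or without either *LA* library. A single fit of all 9 libraries called 8 lower and 2 higher in *LA*. Of the 8 PXR and CAR target genes 2 were tested in sg*FOS* and 1 in *LA*, and none was called.

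Other enzymes that conjugate drugs and hormones were listed as well. Of the 13 other UGT genes, those of the *UGT2*, *UGT3* and *UGT8* families, 3 were tested in *LA* against control and none was called (0.49, 0.60 and -1.43 for *UGT2B10*, *UGT2B11* and *UGT2B15*, adjusted p = 0.29 or above, edgeR). *UGT2B15*, an androgen-conjugating enzyme, had 12 to 15 counts in sgScr and 21 in both sg*FOS* libraries, a log2 fold change of 1.02 ± 0.364 (adjusted p = 0.0374). The call was lost with DESeq2, with no filter, with the replicate number as a block, in the fit of all 9 libraries and without any one of sgScr replicate 1, sgScr replicate 2 and the sg*FOS* libraries. Sulfotransferases, glutathione transferases and related enzymes were listed with 25 genes, of which 18 were tested in *LA* against control. None was called higher and 5 were called lower, with a list median of -0.70, beside 9.94% of all genes called lower. Without either *LA* library *SULT2B1*, a cholesterol sulfotransferase, was the 1 still called, and the correction for length and GC content left 2. In sg*FOS* against sgScr *MGST2* rose by 0.25 (edgeR adjusted p = 0.0331) and *SULT2B1* by 0.25 (adjusted p = 0.046), 2 of 17, beside 12.2% of all genes called higher. DESeq2 called neither, nor did edgeR without sgScr replicate 1 or 2.

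Neighbours on the chromosome were compared with the members. *DNAJB3*, a pseudogene on the minus strand at chr2:234651396-234652661 inside the locus, had 0 counts in both controls, 24 and 39 in *LA*, 4, 3 and 1 in sgScr, and 0 and 1 in sg*FOS*. Set against 3 counts per control library, its mean in *LA* was at least 9.85-fold higher. It was singled out after its values were seen, since it lies within the first intron of most *UGT1A* transcripts, on the other strand, and the strand setting of the counting is not given in the sources used here. *MROH2A*, the next gene past the end of the locus, which was also singled out afterwards, had 42 and 11 counts in control, 78 and 89 in *LA* and 15 to 40 in the 5 others, with a log2 fold change of 1.53 (edgeR adjusted p = 0.111) in *LA* against control. *MROH2A* was called higher in a single fit of all 9 libraries. It also passed an absolute log2 fold change over 0.5 with an unadjusted edgeR p under 0.05. On the left side *USP40* was at 0.43 (adjusted p = 0.465) and *DGKD* at 0.54 (adjusted p = 0.363), and on the right side *HJURP* was at -0.56 (adjusted p = 0.36). Of the 8 neighbours tested in the edgeR fit of *LA* and control alone, *DNAJB3* was the 1 called. Of all genes in that fit, 9.57% were called higher and 9.94% lower. In sg*FOS* against sgScr *DGKD* rose by 0.15 (edgeR adjusted p = 0.00385), and *HJURP* and *USP40* fell by 0.31 (adjusted p = 5.3e-08) and 0.18 (adjusted p = 0.00388). Of the 7 neighbours tested there, 1 was thus called higher and 2 lower, beside 12.2% and 10.5% of all genes. Without sg*FOS* replicate 2 *HJURP* alone of the 3 was called.

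The 5 genes whose pattern over the 9 libraries lay nearest to the summed *UGT1A* counts were sought among 11898 genes averaging 50 counts or more over the libraries, the members left out. The measure was the root mean square difference of log2 CPM, each centred on its mean over the same 9 libraries. *NID2*, a basement membrane protein, was nearest at 0.748 log2 units, followed by *ANKRD30A* (0.818), the epithelial transcription factor gene *EHF* (0.992), *GFRA1*, a receptor for glial cell line-derived neurotrophic factor (1.04), and *C1orf116* (1.04). The median distance over the candidates was 2.10, near the 2.09 that a gene of constant level would have. *NID2* had 29 and 54 counts in control, 509 and 2099 in *LA*, 81 to 96 in sgScr and 85 and 89 in sg*FOS*. *ANKRD30A* had 71 and 79 counts in control, 1189 and 965 in *LA*, 120 to 177 in sgScr and 113 and 128 in sg*FOS*. Like the *UGT1A* sum, each of the 5 was highest in the 2 *LA* libraries, which the choice by likeness favours. Unlike the sum, *NID2*, *EHF*, *GFRA1* and *C1orf116* had the higher count in *LA* replicate 2. Of the 5, *ANKRD30A* alone had it in replicate 1, as the sum did.

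**Figure D5:**
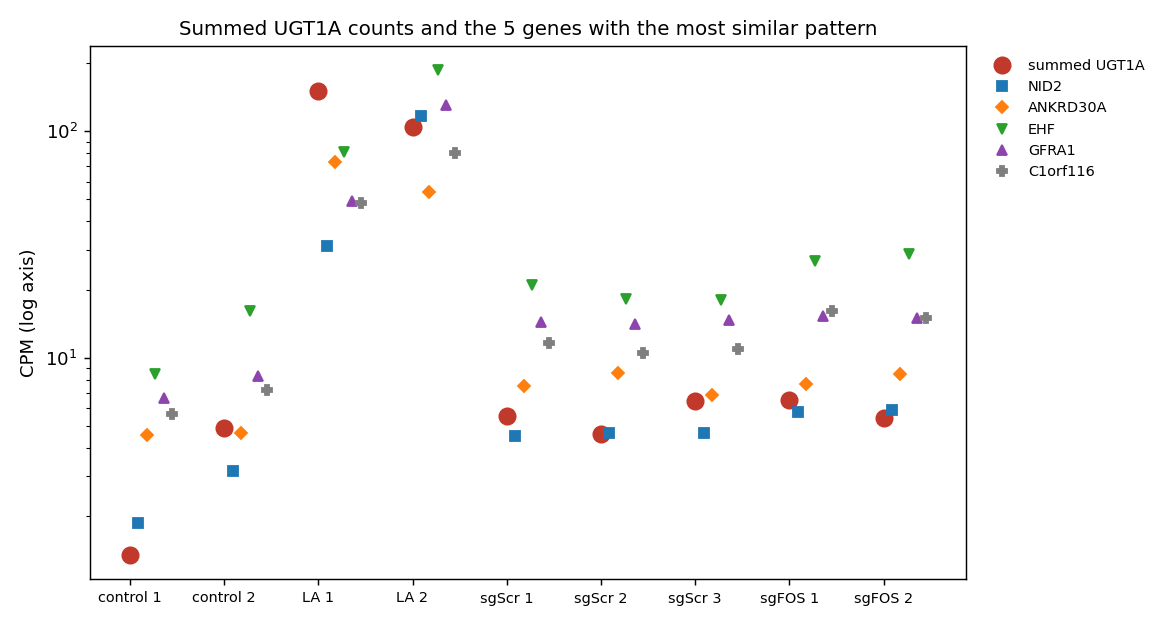
Level in CPM (log axis) of the summed *UGT1A* counts and of the 5 nearest genes in each library. In *LA* the summed *UGT1A* level was 149.7 and 104.3 CPM, against 4.62 to 6.51 CPM in sgScr and sg*FOS*.

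The 250 bases before the RefSeq start of *UGT1A9*, *UGT1A7* and *UGT1A8* are shown because they precede first exons of like sequence whose counts differed. Coordinates are GRCh38.p14, plus strand, and capitals mark the motif matches found.
UGT1A9, chr2:233671648-233671897: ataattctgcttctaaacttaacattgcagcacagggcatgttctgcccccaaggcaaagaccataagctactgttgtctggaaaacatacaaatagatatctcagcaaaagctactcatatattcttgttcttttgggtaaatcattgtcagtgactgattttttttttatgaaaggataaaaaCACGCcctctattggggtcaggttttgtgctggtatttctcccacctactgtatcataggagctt
UGT1A7, chr2:233681651-233681900: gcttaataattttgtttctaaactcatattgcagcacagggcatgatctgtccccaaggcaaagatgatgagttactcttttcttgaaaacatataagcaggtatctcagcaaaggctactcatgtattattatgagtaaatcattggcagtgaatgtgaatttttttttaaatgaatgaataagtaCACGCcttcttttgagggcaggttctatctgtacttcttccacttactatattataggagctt
UGT1A8, chr2:233617383-233617632: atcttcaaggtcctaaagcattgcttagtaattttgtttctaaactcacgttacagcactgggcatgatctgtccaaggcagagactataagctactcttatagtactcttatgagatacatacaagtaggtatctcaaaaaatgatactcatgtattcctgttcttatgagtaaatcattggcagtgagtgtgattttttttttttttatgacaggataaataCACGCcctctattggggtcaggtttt

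RefSeq gave 9 windows for 8 members, with 2 for *UGT1A6*. On both strands 4 motifs were searched, the AHR core GCGTG, the antioxidant response core TGACNNNGC, the AP-1 site TGANTCA to which FOS binds with JUN, and the TATA box TATAAA. In each of the windows shown the AHR core was the 1 match, on the minus strand, 65 to 61 bases before the start in *UGT1A9*, 63 to 59 in *UGT1A7* and 26 to 22 in *UGT1A8*. These positions count from each gene's own start. The *UGT1A8* first exon was 930 bp long, against 892 bp for *UGT1A9* and *UGT1A7*, with 855 coding bases in each. The *UGT1A8* start thus lay further before its coding part. Over the 9 windows the AHR core was found in 5, where 32.2% of 35116 windows of all genes hold it. The antioxidant core was found in 2 (10.9% of all windows), the TATA box in 1 (10.7%) and the AP-1 site in 0 (6.6%). The member windows held 34.8% to 57.6% GC, where the median of all windows was 58.0%. A match is a run of letters and was not tested as a binding site.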

How the data were processed

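The authors deposited a table of raw read counts per gene name for 9 RNA-seq libraries (a stranded mRNA kit, 150-base paired reads). Per the labels and the submitters' processing notes, reads were aligned to hg19 with STAR 2.7.10b, and DESeq2 1.26.0 was also used. The counting program, its annotation, its strand setting and its treatment of shared exons are not given in the sources used here.

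Counts were scaled by TMM and fitted per comparison with edgeR 4.0.16 (quasi-likelihood test, filterByExpr, Benjamini-Hochberg adjustment over all genes tested, threshold 0.05) in R 4.3.3. DESeq2 1.42.0 was an alternative, and the fit was tested on simulated data. Library totals and the limit of a count of 0 are given with the results. Of the gene names 28 look like dates and were kept as they stand.

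The members and gene lists were chosen with earlier results of these data known. Named were the members, the label checks, every gene of 4 pathway lists (2 tested regulators count in the totals but are not reported here), up to 3 called genes per direction in sg*FOS* against sgScr from each other list, and the 5 nearest genes. For *LA* against control the called genes of the other lists are given mostly as counts. Gene models came from the GRCh37 annotation, promoters from RefSeq (GRCh38.p14), and transcript lengths were found for 22494 of 26364 names by symbol and for 2194 by another symbol.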

Additional observations from a re-analysis of the deposited data

How the results depend on the processing

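In sg*FOS* against sgScr no *UGT1A* gene was called under any alternative that gave a member a test. For *UGT1A1*, *UGT1A6*, *UGT1A7* and *UGT1A9* the edgeR adjusted p-values were 0.50 or above. *UGT1A3* had an adjusted p of 0.325 in edgeR with no filter, and DESeq2 gave one to *UGT1A9* alone (0.985). In the single fit of all 9 libraries and without sg*FOS* replicate 2, 5 members were tested. The sg*FOS* library left in the latter had 12 counts of *UGT1A3*, against 1, 6 and 9 in sgScr. The log2 fold change of *UGT1A7* stayed between 0.10 and 0.41. That of *UGT1A1* ran from -0.68 to 0.41 and changed sign with the replicate block (0.073), without sgScr replicate 3 (0.08) and without sg*FOS* replicate 2 (0.41). That of *UGT1A6* ran from -0.44 to 0.16 and changed sign with the replicate block (0.048), without sgScr replicate 3 (0.05) and without sg*FOS* replicate 1 (0.16), and that of *UGT1A9*, from -0.14 to 0.15, without sgScr replicate 2 (-0.14) and without sg*FOS* replicate 1 (-0.03). The cause was not tested. A minimum mean of 50 counts left no member to test. Over all genes 3221 were called, against 818 by the threshold of the study's methods, 1956 by DESeq2 and 0 by edgeR in a single fit of all 9 libraries (where 444 had an unadjusted p under 0.05), and 1916 to 3519 with single replicates left out. That single fit shares 1 estimate of the spread with the control and *LA* libraries.

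In *LA* against control the log2 ratio of the summed *UGT1A* CPM was 5.34, and 4.70 to 6.55 with single replicates left out, the highest without control replicate 2, where *UGT1A9* was at 6.77. Without that library the remaining control had 0 counts of *UGT1A1*, *UGT1A3* and *UGT1A6*, and no value is given for them. Scaling by library size alone called 1599 genes higher and 680 lower, beside 1380 and 1434. Same-numbered replicates did not deviate together (correlations of -0.192 in *LA* against control, and -0.115 and 0.008 in sg*FOS* against sgScr), so the numbers were not taken as pairs. The replicate block called 791 genes higher and 728 lower in *LA* against control, and the crossed pairing, chosen after seeing the data, 1977 and 1901. At 82 to 116 summed *UGT1A* counts in the sgScr and sg*FOS* libraries, depth limits what can be seen of single members.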
